A study of Mus musculus with 18 samples.

Results

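The cytosolic ribosomal protein genes were taken from 18 read count tables of mouse retina as every gene whose symbol starts with Rpl or Rps and goes on with a number, at most one letter a, x, y or l and further digits, together with Rpsa, Rplp0, Rplp1 and Rplp2. Kinases of the Rps6k family, pseudogenes and mitochondrial ribosomal proteins were left out. Of 35006 gene names, 83 met this rule, 33 of the small and 50 of the large subunit with its stalk, on 19 chromosomes. The expression filter was passed by 80. Rpl3l, Rpl10l and Rpl39l did not pass it.

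Ribosomal proteins coat and shape the ribosomal RNA of the particle that translates messenger RNA. A ribosome needs each of them in about equal amount, and the genes are kept in step by shared promoter features and by a pyrimidine tract at the start of their messages, the terminal oligopyrimidine or TOP motif, through which mTORC1 and the RNA-binding protein LARP1 control their translation. In the retina, photoreceptors renew their outer segments every day and depend on steady protein synthesis.

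All mice were male and the tissue was whole retina. WT animals were C57BL/6J. Akita animals (C57BL/6-Ins2Akita/J) carry a missense mutation in 1 copy of the insulin gene Ins2 and become diabetic early in life, so that the model is one of insulin deficiency with hyperglycemia. NACET is N-acetylcysteine ethyl ester, an antioxidant. It was dissolved in drinking water at 0.33 mg/mL, a daily dose of 50 mg/kg, between 4 and 24 weeks of age, and the other animals drank water without it. There were 3 WT, 6 WT + NACET, 4 Akita and 5 Akita + NACET libraries, with 11495596 to 17814479 gene counts each. Markers of rods summed to between 91519.8 and 215262 CPM (counts scaled to library size) in every library, as retina should give. Lens markers summed to 3.23 to 20.8 CPM in WT, but to 25226.9 in 1 WT + NACET library and 2.35 in another. They reached 3005.08 CPM in Akita and 1318.41 in Akita + NACET.

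The region around the transcription start was examined first, because the shared regulation of these genes is written there. In the RefSeq promoter table (build GRCm38.p6, 250 bases before to 50 bases after each start) 62 of the 83 genes had an entry. A run of at least 8 C or T within 50 bases of a start was found for 51 of them (82.3%), against 39.3% of all 27025 genes of the table. A run that opens with C was found for 56.5% against 25.5%. The letters CCGGAAG, bound by ETS factors, occurred on either strand in 25 of the 62 (40.3%) and in 9.93% of all genes, and AAGATGGC, the core bound by YY1, in 9.68% against 3.19%. TATAAA was present in 11.3% against 15.7%. The searched motifs can overlap a run, and a match is a description of letters, not of binding. The 8 genes that follow are shown because the comparisons turn on them, 5′ to 3′, each as 30 bases on its own strand, with the longest C or T run near the start in capitals:
Rpl15 (chr14:18270969-18270998, minus strand): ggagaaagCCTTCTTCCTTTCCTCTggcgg
Rplp2 (chr7:141447638-141447667, plus strand): cgtcagcgTCTTCCTTTCgccgccggacgc
Rps25 (chr9:44407684-44407713, plus strand): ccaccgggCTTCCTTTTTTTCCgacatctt
Rpl26 (chr11:68901508-68901537, plus strand): tcccaaccTCCTCTCCCCTTTCgctccgag
Rps7 (chr12:28635910-28635939, minus strand): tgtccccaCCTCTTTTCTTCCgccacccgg
Rpl9 (chr5:65391382-65391411, minus strand): cgaaagacgTTCTCTCTTTgccccatctac
Rplp0 (chr5:115559470-115559499, plus strand): ccgcctggTTCTCCTataaaaggcacacgc
Rpl24 (chr16:55966231-55966260, plus strand): caaacccaCTCCCCgccaatgctgtaggaa
The runs were 17 bases in Rpl15, 14 in Rps25 and Rpl26, 13 in Rps7, and 10 in Rplp2 and Rpl9, but only 7 in Rplp0, whose last T opens a TATAAA, and 6 in Rpl24. Rps29 had no entry.

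What the count of a ribosomal protein gene stands for depends on its copies elsewhere in the genome. These genes have many processed pseudogenes, and reads that aligned to several places, 7.46% to 10.2% per library, were left out of the counts. Each coding transcript was cut into all its windows of 32 bases, and a median of 69.3% of a gene's windows was also found at another place in mm9 (interquartile range 46.1% to 85.6%). The median over 76 mitochondrial ribosomal protein genes was 2.65%. Of the windows of Rps27 99.7% occurred elsewhere, and of those of Rpl8 9.87%. The 83 genes together held 0.206% to 0.330% of the gene counts of a library, and 3 of them held 36.1% of the counts of the group. Named pseudogenes of ribosomal proteins, 156 entries, held counts equal to 31.7% of those of the 83 genes. A level here is therefore that of the reads left after this loss, and an order of levels is not an order of transcript abundance.

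Expressed per kilobase of exon, the highest mean levels were those of Rpl4 (343 CPM per kilobase), a protein of the exit tunnel, and Rpl32 (308), and the lowest among tested genes those of Rps28 (0.645), Rpl17 (0.691) and Rps13 (0.764). When the length was replaced by the number of unique windows, a measure chosen after the data were seen, the level was 1385 for Rps27, which has almost no unique window, 1099 for Rpl32, 534 for Rpl4, 14.5 for Rps28 and 1.51 for Rps13, so that Rpl32 and Rpl4 changed places. Over the 80 genes the level per kilobase and the share of windows found elsewhere had a Spearman rho of −0.28, given as a description, since all values come from the same libraries and the shares from 1 genome.

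**Figure D1:**
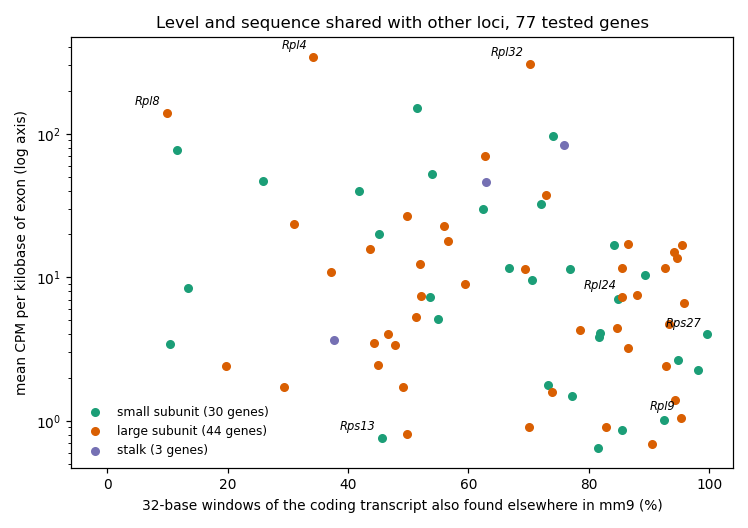
Mean CPM per kilobase of exon over 18 libraries (log axis) against the share of 32-base windows of the coding transcript that are also found elsewhere in mm9, for 77 tested genes, coloured by subunit. Rpl8, with few shared windows, lies high, and Rps27, with nearly all windows shared, lies low, but Rpl32 is high at 70.2%.

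Paralogs that replace a ribosomal protein in other tissues were close to absent. Rpl10l and Rpl39l, known from testis, had 3 and 12 counts in all 18 libraries together, and Rpl3l, known from striated muscle, had 28. Their partners were present, Rpl10 at 2.86 CPM, Rpl39 at 7.60 and Rpl3 at 15.9 on average. Other paralogs were well expressed. Per kilobase of exon, Rpl22l1 stood at 37.3 and Rpl22 at 17.98, Rpl7l1 at 23.6 and Rpl7 at 11.4, Rps27l at 40.2 and Rps27 at 4.01, and the gene listed as Rps4y2, an older symbol of Rps4l, at 46.9 and Rps4x at 10.3. In each of these 4 pairs the partner with the higher level had fewer or about as many windows elsewhere, except that Rpl22l1 (72.9%) had more than Rpl22 (56.7%). Among genes with wider roles, Rps6, a substrate of S6 kinase, had 4.19 CPM, Rps27a, made as a fusion with ubiquitin, 3.49, Rpsa, also known as the laminin receptor, 9.58, and the stalk genes Rplp0, Rplp1 and Rplp2 76.5, 41.4 and 7.60.

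The gene listed as Rpl24 needs a separate remark. In the reference annotation it spans chr16:55966388-56009026 of mm9, far beyond the 474-base coding sequence of the ribosomal protein, because a second transcript with a coding sequence of 3153 bases (chr16:55973917-56009026) bears the same gene name. Of its exon bases, 82.9% lie beyond the ribosomal protein transcript. In RefSeq the next gene on this strand is Zbtb11, a zinc finger protein, which has no row of its own here. Since 85.6% of the windows of the ribosomal transcript occur elsewhere, the counts of the 2 coding sequences cannot be told apart in the value named Rpl24. Exons of 16 genes overlap those of a gene other than a small nucleolar RNA, and counting ignored strand. Rpl35 shares 66.2% of its exon bases with Wdr38, Rpl23a 59.7% with Tlcd1 and Rpl5 24.3% with Fam69a.

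The summed level of the 83 genes was 2773.51, 2594.43 and 2968.95 CPM in WT, 2968.73, 3045.97, 3290.43 and 2903.24 in Akita, and 2844.76, 2681.79, 3031.44, 2658.72 and 1822.98 in Akita + NACET. In WT + NACET it ran from 2742.06 over a median of 3061.64 to 3425.72. The 4 groups overlapped, and Akita + NACET replicate 5 lay below every other library. In whole retina, fewer cells of a type and less RNA per cell cannot be told apart in such levels. In that library 9 of the 80 genes were above their own mean and the median gene was 0.58 below it on the log2 scale, while in WT + NACET replicate 5 70 genes were above and the median was 0.26. The small and the large subunit followed the same course, with 781 and 1041.49 CPM in Akita + NACET replicate 5 against 1183.76 to 1387.01 and 1474.96 to 1644.43 in the other libraries of that group.

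**Figure D2:**
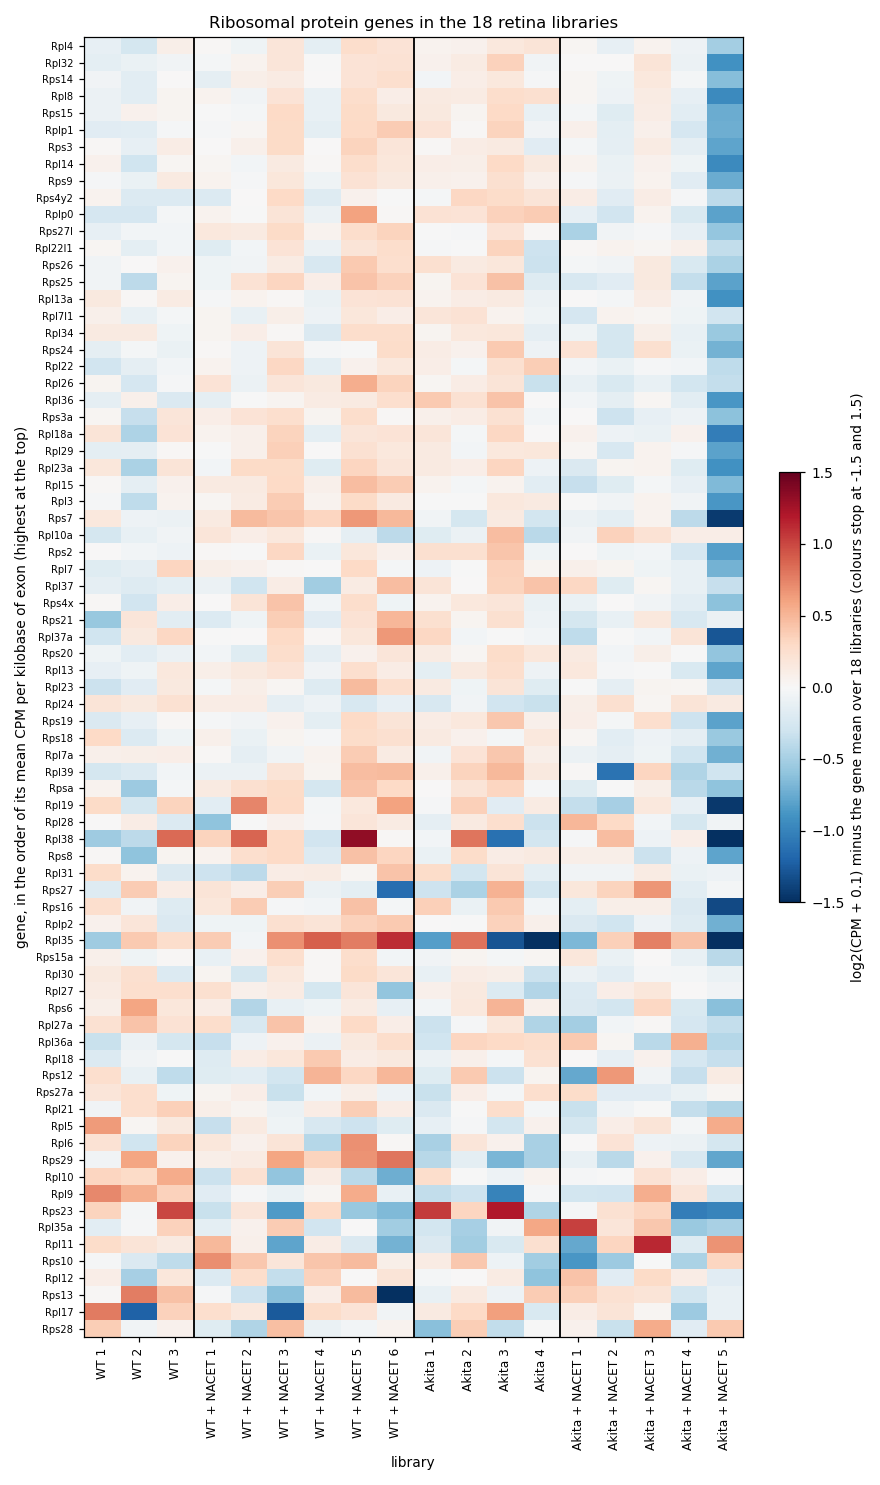
Deviation of log2(CPM + 0.1) from each gene's mean over the 18 libraries, for 77 of the 80 tested genes in the order of their level per kilobase, with the libraries in columns by group. Akita + NACET replicate 5 is above the mean in only 9 of all 80 genes, and the genes with the lowest levels, with few counts, are noisy.

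On TMM-scaled sizes, the summed level ran against the outside-exon share, the percentage of uniquely aligned reads lying outside annotated exons. It was 14.9% to 17.1% in WT, 9.55% to 16.6% in WT + NACET, 9.67% to 13.3% in Akita and 14.3% to 19.8% in Akita + NACET, highest in replicate 5. Across the 18 libraries Pearson's r was −0.83 (two-sided permutation p = 2e-05, the smallest the resamples can give) and Spearman's rho −0.83 (permutation p = 6e-05), each with an adjusted p of 8e-05 over 4 relations. Without the 2 libraries farthest from the median share r was −0.79, and without Akita + NACET replicate 5 it was −0.81. Within the 6 WT + NACET libraries r was −0.79 and Spearman's rho −0.54. The groups differ in this share, so the relation over all 18 libraries includes differences between groups. Its p-values do not set these apart. The mitochondrial ribosomal protein genes gave r = −0.81 (permutation p = 4e-05) over the same libraries. The scaling factor was 0.803 in Akita replicate 4, at 10.2% outside exons, and 1.13 in Akita + NACET replicate 5, at 19.8%. In unscaled gene counts the ribosomal protein genes held 0.233% in Akita replicate 4, below WT (0.282% to 0.299%). Akita replicate 3, at 9.67% outside exons, was above WT at 0.314%. The relation to that unscaled percentage was not tested. The part of the outside-exon share in the group differences below was not tested except by the fit that holds it as a covariate.

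**Figure D3:**
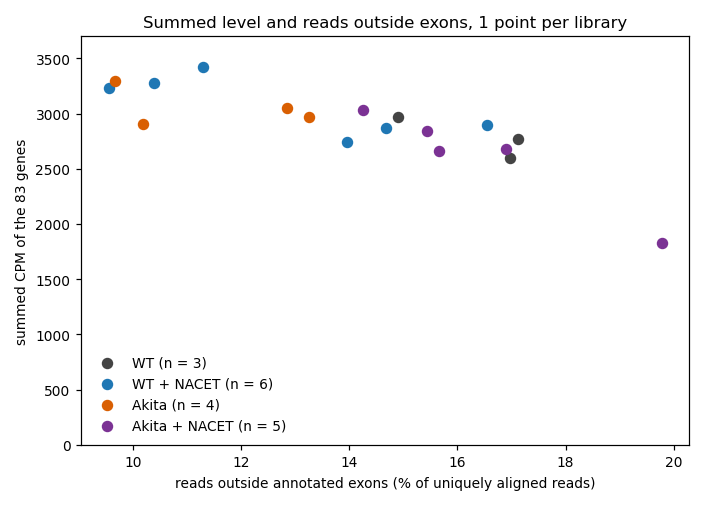
Summed CPM of the 83 genes against the share of uniquely aligned reads outside annotated exons, 1 point per library, coloured by group. Libraries with about 10% outside exons lie at 2903.24 CPM or above, and Akita + NACET replicate 5, at 19.8%, lies lowest at 1822.98 CPM.

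The effect of diabetes was read from Akita vs WT. Of the 80 genes none rose and 2 fell, where 7.64% of the 16183 genes tested were called, 3.96% rising and 3.68% falling. Rpl9, a large subunit protein, had 5.17, 4.56 and 3.97 CPM in WT and 2.38, 2.49, 1.51 and 3.07 in Akita, with no overlap. It fell by 0.96 ± 0.26 (SE) on the log2 scale (edgeR adjusted p = 0.0316), on a mean of 49.1 counts per library and with 95.3% of its windows found elsewhere. The gene listed as Rpl24 had 49.9, 48.5 and 51.4 CPM in WT and 37.1, 42.04, 35.9 and 34.7 in Akita, again with no overlap, and fell by 0.41 ± 0.10 (edgeR adjusted p = 0.0207). The other 78 genes were not called. Rplp0, the core of the stalk that recruits translation factors, was at 66.3 ± 6.12 CPM (SD, n = 3) in WT and 91.6 ± 5.80 (n = 4) in Akita, a log2 difference of 0.47 (adjusted p = 0.0791), Rpl22 at a difference of 0.33 (0.0861), Rps4y2 at 0.31 (0.143) and Rpl27a at −0.43 (0.13). The median of the 80 log2 fold changes was 0.09, with 53 of them positive, and that of all genes −0.01. It was 0.03 without Akita replicate 3 and 0.04 without WT replicate 2. Groups did not overlap upward for 10 and downward for 5 genes, where 11.2% and 12% of all genes did so. Without WT replicate 1 or 2 there was no call among the 80 and none among all genes, and without Akita replicate 1, 3 or 4 there was 1. The shares of reads outside exons of Akita and WT do not overlap. With that share as covariate there was likewise none and the median was −0.14. The change of these genes and that share therefore cannot be told apart here.

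**Figure D4:**
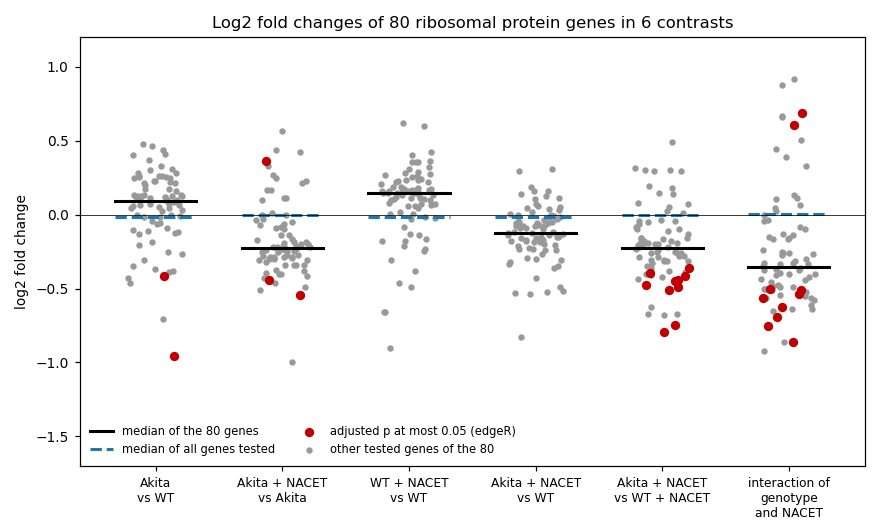
Log2 fold changes of the 80 tested genes in 5 comparisons of groups and in the interaction, with called genes in red, the median of the 80 as a solid line and that of all genes tested as a dashed line. The solid line lies above the dashed line in Akita vs WT and WT + NACET vs WT and below it in the other 4 columns.

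NACET in diabetic animals was assessed by Akita + NACET vs Akita. Of the 80 genes 1 rose and 2 fell, against 4.51% and 5.14% of all genes, 9.65% in either direction. That background itself rests on single libraries, since the 1562 genes called became 1 without Akita replicate 4 and 101 without Akita + NACET replicate 5. Rplp0 had 86.8, 86.6, 95.4 and 97.7 CPM in Akita and 68.9, 61.4, 77.7, 64.01 and 42.8 in Akita + NACET. Every treated library lay below every untreated one, and the level fell by 0.54 ± 0.14 (SE) on the log2 scale (edgeR adjusted p = 0.0281). The gene listed as Rpl24 had 46.4, 51.7, 44.5, 50.0 and 47.9 CPM with NACET, all above the Akita libraries. It rose by 0.36 ± 0.09 (edgeR adjusted p = 0.021). Rps2 (log2 difference −0.43, adjusted p = 0.0507) just missed the threshold, and Rpl9 (0.42, 0.233) and Rpl11 (0.57, 0.255), a protein that with Rpl5 restrains Mdm2, were not called. The median log2 fold change was −0.23 with 65 of 80 negative, against −0.00 for all genes. Groups did not overlap upward for 1 and downward for 8 genes, against 6.69% and 7.43% of all genes. The libraries with the lowest and highest scaling factors were Akita replicate 4 (0.803) and Akita + NACET replicate 5 (1.13). Without either, or without Akita + NACET replicate 2, 0 of the 80 genes were called, without Akita replicate 3 1 and without Akita + NACET replicate 3 9, and the median was −0.25 without Akita replicate 4 and −0.13 without Akita + NACET replicate 5. The shares of reads outside exons of these 2 groups do not overlap, and with that share as a covariate 0 of all genes were called and the median was 0.03, so that the change of these genes and that share cannot be told apart here.

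Treatment of non-diabetic animals, WT + NACET vs WT, gave no call among the 80 genes, where 1.48% of all genes were called, 0.859% upward and 0.624% downward. By edgeR 10 (12.5%) had an unadjusted p below 0.05, against 19.5% of all genes, and DESeq2 with all groups in the fit called 0 of them and 712 of all genes. The smallest p-values upward were those of Rps27l, a paralog of Rps27 known as a p53 target (log2 difference 0.28, adjusted p = 0.186), Rpl26 (0.31, 0.189) and Rpl15 (0.27, 0.223). Downward they were those of Rpl10, which is added late in the assembly of the large subunit (−0.66, 0.09), Rpl24 (−0.25, 0.144) and Rpl5 (−0.46, 0.157). Without overlap, 4 genes were higher and 2 lower, against 6.29% and 5.18% of all genes. Rpl10 was at 3.70 ± 0.39 CPM (SD, n = 3) in WT and 2.34 ± 0.66 (n = 6) with NACET. The median was 0.15, with 61 of 80 positive, against −0.01 over all genes, and −0.07 with the outside-exon share as covariate. Without WT + NACET replicate 2 there was 1 call, downward.

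Akita + NACET vs WT set treated diabetic against untreated normal retina, and again 0 of the 80 genes were called by edgeR, as was 0.00618% of all genes. At an unadjusted p below 0.05 there were 5 (6.25%, against 4.63% of all genes), among them Rpl27a (log2 difference −0.52), Rpl21 (−0.43) and Rps6 (−0.49), each with an adjusted p of 0.9996, and DESeq2 called 0, and 11 of all genes. Upward the smallest p-values were those of Rpl10a (0.29), Rpl36a (0.31) and Rpl28 (0.14), with the same adjusted p. Without overlap, 1 gene was higher and 3 lower, against 2% and 2.17% of all genes. The median was −0.12 and 62 of 80 were negative, and without Akita + NACET replicate 5 the median was −0.03 with 47 negative, and without WT replicate 3 it was −0.05.

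The 2 treated groups were compared for the effect of diabetes under NACET. In Akita + NACET vs WT + NACET none of the 80 genes rose and 10 fell, 12.5% of the 80. Of all genes 13.3% were called, 6.01% higher and 7.26% lower. Rpl15, a core protein of the large subunit, ran from 30.5 over a median of 33.8 to 40.05 CPM in WT + NACET and stood at 22.8, 25.5, 28.3, 26.7 and 18.3 in Akita + NACET. The groups did not overlap, and the level fell by 0.51 ± 0.10 (SE) on the log2 scale (edgeR adjusted p = 0.00425). Rps27l ran from 33.7 over 37.5 to 41.0 CPM and was at 23.4, 31.2, 32.03, 29.8 and 21.7 in Akita + NACET, a fall of 0.44 ± 0.10 (edgeR adjusted p = 0.00741). Rpl26, which binds p53 messenger RNA besides its place in the large subunit, fell by 0.45 ± 0.11 (edgeR adjusted p = 0.0118), with 23.1 to 35.6 CPM against 19.1 to 22.7. Rps7 (chr12:29315712-29320818, minus strand, mm9) ran from 11.8 over 14.6 to 16.9 CPM and was at 10.1, 9.67, 11.1, 8.14 and 3.92 in Akita + NACET. It fell by 0.75 ± 0.18 (edgeR adjusted p = 0.0125), and its difference of 0.42 in WT + NACET vs WT was not called (adjusted p = 0.275). Rplp2 (−0.48, adjusted p = 0.0266) and Rplp0 (−0.40, 0.0473) fell as well. Outside the rule for naming genes, Rps25 (−0.49, 0.0299), Rps29 (−0.79, 0.0352) and Rps3a (−0.36, 0.0426) were called too, named after their values were seen. Rps29 had few counts, at 1.04 to 1.77 CPM in WT + NACET and 0.522 to 1.02 in Akita + NACET. Its call was lost in 12 of 23 alternatives, that of Rps3a in 12 of 24 and that of Rplp0 in 13 of 24. Those of Rpl15, Rps27l and Rps7 were lost in 1 of 24 each.

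Of the 80 genes, 7 were lower and 0 higher without overlap between the groups, where 5.01% and 3% of all genes were. The smallest p-values upward were those of Rpl24 (0.19, adjusted p = 0.0979), Rpl5 (0.30, 0.176) and Rpl10 (0.31, 0.23), none of them called. The small subunit had 6 calls of 33 and the large subunit with the stalk 4 of 47. The median was −0.22 over the 80 genes, −0.14 without Akita + NACET replicate 5, and −0.00 over all genes. Calls numbered 5 when Akita + NACET replicate 2 was dropped, 6 for Akita + NACET replicate 4 or 5 or WT + NACET replicate 6, and 4 for WT + NACET replicate 3 or 5. With the outside-exon share as covariate there were 0 of 80 and 194 of all genes, with a median of −0.05.

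**Figure D5:**
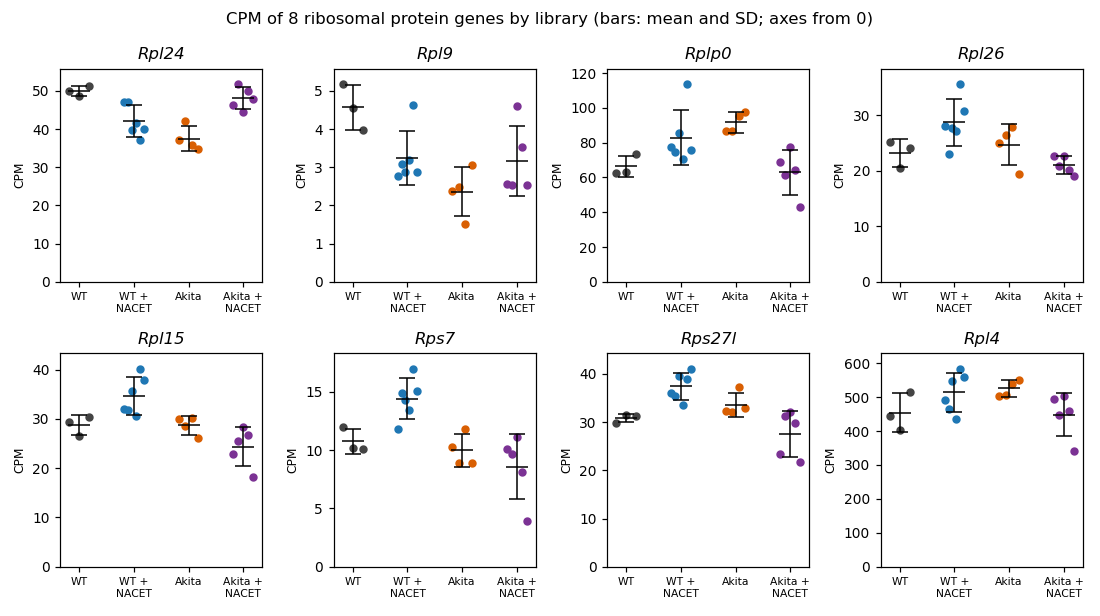
CPM of 8 genes in every library by group, with the mean and SD, on axes that start at 0. Rpl24 is lowest in Akita and Rplp0 highest there, Rpl15, Rps7 and Rps27l are highest in WT + NACET, and Akita + NACET replicate 5 is the lowest library for Rplp0, Rpl26, Rpl15, Rps7, Rps27l and Rpl4.

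The interaction asked whether the NACET effect differed between Akita and WT, as the effect in Akita minus that in WT. Of the 80 genes 2 were higher and 8 lower, against 10.1% and 10.2% of all genes, so that the share of calls (12.5%) was below that of all genes (20.3%). Rplp0 had the difference with the smallest p among those lower, −0.86 ± 0.21 (SE, log2; edgeR adjusted p = 0.0101), followed by Rps27l at −0.56 ± 0.16 (edgeR adjusted p = 0.0177) and Rpl22, an RNA-binding protein of the large subunit, at −0.50 ± 0.15 (edgeR adjusted p = 0.0258). Rpl26 (−0.54, adjusted p = 0.0345), Rpl15 (−0.51, 0.0351), Rpsa (−0.69, 0.0477) and, outside the naming rule, Rps25 (−0.75, 0.0283) were called too. In the other direction stood the gene listed as Rpl24 at 0.61 ± 0.12 (edgeR adjusted p = 0.0041) and Rpl5 at 0.69 ± 0.24 (edgeR adjusted p = 0.0495), and Rpl9 at 0.92 was not called (adjusted p = 0.0526). The calls of Rpl5 and Rpsa were lost in 21 and 18 of 30 alternatives, those of Rpl24 and Rplp0 in 1 each. The median was −0.36 with 64 of 80 negative, against 0.00 over all genes. Without WT replicate 1 there were 2 calls, without WT replicate 2 3, without Akita replicate 3 5 and without Akita replicate 1 6, and with the outside-exon share as covariate 0 of 80 and 17 of all genes, with a median of 0.12.

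The contrasts share libraries, so their values stand side by side and are not independent of each other. Without the gene listed as Rpl24, the other 79 genes gave 0 higher and 1 lower call in Akita vs WT. They gave 0 higher and 2 lower in Akita + NACET vs Akita, and 1 higher and 8 lower in the interaction. Other genes of the translation machinery gave the following counts. Of 23 tested translation factors with TOP messages, 3 rose in Akita vs WT, among them Pabpc1, the poly(A)-binding protein, by 0.64 ± 0.14 (SE, log2; edgeR adjusted p = 0.0165), and Eif4b, a helicase cofactor, by 0.44 ± 0.11 (edgeR adjusted p = 0.0283). With NACET in Akita, Pabpc1 fell by 0.46 ± 0.12 (edgeR adjusted p = 0.0239), the only call of the 23. In Akita + NACET vs WT + NACET 3 fell, with Eif4a2 at −0.39 (edgeR adjusted p = 0.0152) and Eef1a1, the elongation factor that brings aminoacyl-tRNA, at −0.46 (0.0242), and 5 were lower in the interaction, with Pabpc1 at −0.75 (0.00757) and Eef1a1 at −0.77 (0.0151). The medians of the list in these 4 contrasts were 0.18, −0.22, −0.16 and −0.41. Over all genes 7.64%, 9.65%, 13.3% and 20.3% were called in them, with medians of −0.01, −0.00, −0.00 and 0.00.

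The mitochondrial ribosome, which shares no protein with the cytosolic one, had all 76 genes tested. It gave 1 lower call in Akita vs WT, Mrpl35 at −0.40 (edgeR adjusted p = 0.0181), 5 lower with NACET in Akita, led by Mrps28 at −0.43 (0.0291) and Mrps21 at −0.30 (0.0331), 23 lower in Akita + NACET vs WT + NACET, led by Mrpl36 at −0.45 (edgeR adjusted p = 0.000449) and Mrps21 at −0.45 (0.00141), and 12 lower and 1 higher in the interaction, led by Mrps28 at −0.88 (0.00288) and Mrpl54 at −0.81 (0.00514). Its medians were 0.06, −0.16, −0.21 and −0.24. Of all genes 3.68%, 5.14%, 7.26% and 10.2% were lower in these 4 contrasts. The call of Mrpl35 was lost in 6 of 20 alternatives, and those of Mrps28 and Mrps21 with NACET in Akita in 10 and 13 of 23. In Akita + NACET vs WT + NACET Mrpl36 was lost in 0 and Mrps21 in 1 of 24. Mrps28 and Mrpl54 in the interaction were lost in 1 of 30 each. Fau and Rpl36al, ribosomal proteins that the symbol rule leaves out, had no call in any contrast.

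Genes that build ribosomes were called in both directions. Of 33 ribosome biogenesis genes, Pes1 (0.32, edgeR adjusted p = 0.0383) and, outside the naming rule, Ncl (0.30, 0.0458) rose in Akita vs WT. Nop56 fell there by 0.31 (0.0376). With NACET in Akita Nop56 rose by 0.25 (0.0469) and Nle1 by 0.34 (0.0478), while Ncl, again outside that rule, fell by 0.25 (0.0485). In Akita + NACET vs WT + NACET 1 rose and 4 fell, with Ltv1, a small subunit assembly factor, at −0.46 (0.0024) and Nhp2 at −0.35 (0.0361), and in the interaction 2 were higher and 4 lower, with Ltv1 at −0.64 (0.00514) and Nop56 at 0.44 (0.0132). The medians of the list lay between −0.04 and 0.03 in all 6 contrasts. In the 4 contrasts with calls of these 33 genes, 7.64%, 9.65%, 13.3% and 20.3% of all genes were called, in the order named. None of 14 RNA polymerase I genes was called in any contrast. Of 20 regulators of the mTORC1, LARP1 and MYC list, Tsc2, which restrains mTORC1, rose by 0.31 ± 0.09 in Akita vs WT (edgeR adjusted p = 0.0405), fell by 0.32 ± 0.08 with NACET in Akita (0.0218) and was at −0.37 in the interaction (0.0308), and Mxi1 (0.45, 0.0158) and Mlst8 (0.22, 0.0386) rose in Akita + NACET vs WT + NACET. Among 8 small nucleolar RNA host genes, Snhg11 fell by 1.55 ± 0.31 in Akita vs WT (edgeR adjusted p = 0.0165) and rose by 1.46 ± 0.28 with NACET in Akita (0.019), and it (2.12, 0.00363) and Snhg1 (0.78, 0.024) were higher in the interaction. Of 7 chaperones and p53 axis genes, Bccip fell by 0.29 (0.0269) in Akita + NACET vs WT + NACET and Mdm4 was higher by 0.70 (0.0285) in the interaction. In Akita vs WT the calls of Tsc2 and Nop56 were lost in 12 of 20 alternatives, of Ncl and Pes1 in 10 and of Snhg11 in 4. With NACET in Akita, Ncl and Nle1 were lost in 15 of 23, Nop56 in 14, Tsc2 in 8 and Snhg11 in 4. In Akita + NACET vs WT + NACET, Mlst8 was lost in 13 of 24, Nhp2 in 10 and Ltv1 in 1.

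In Akita vs WT and in Akita + NACET vs Akita the rod marker medians were 0.43 and −0.44, and those of cones 0.24 and −0.44. Medians of the 80 ribosomal protein genes had the same signs, at 0.09 and −0.23. In Akita vs WT, however, none of the 80 was called higher and 2 were lower. Bipolar (−0.22 and 0.17), amacrine (−0.54 and 0.32), ganglion cell (−0.42 and 0.30) and endothelial markers (−0.65 and 0.71) had medians of the opposite signs. Of 10 rod markers 3 rose in Akita vs WT, 7 fell in Akita + NACET vs Akita, 3 fell in Akita + NACET vs WT + NACET and 9 were lower in the interaction. Their summed level was 99425.9 to 135796 CPM in WT, 123568 to 164601 in WT + NACET, 142400 to 215262 in Akita and 91519.8 to 124365 in Akita + NACET, and 0 of the 10 were at 0. Of 8 cone markers, 0 were called in Akita vs WT, 3 fell with NACET in Akita and 4 fell in Akita + NACET vs WT + NACET. Markers of retinal pigment epithelium, a neighbouring tissue, summed to 179 to 935 CPM in WT, 662 to 1492 in WT + NACET, 94.2 to 281 in Akita and 124 to 696 in Akita + NACET, and 1 of 10 was lower in Akita + NACET vs WT + NACET. Of 6 amacrine markers 4 fell in Akita vs WT, and of 8 microglia markers 5 were lower in Akita + NACET vs WT + NACET. In the same contrast 4 of 5 tested cornea and conjunctiva markers and 3 of 5 red cell markers were higher, and 1 of 3 astrocyte markers, Gfap, was at −1.65 on the log2 scale and lower. Red cell markers summed to 20.01 to 56.4 CPM in WT + NACET and 35.7 to 97.2 in Akita + NACET, and cornea and conjunctiva markers to 2.22 to 16.3 and 9.72 to 99.99. Of all genes 3.96% rose and 3.68% fell in Akita vs WT, and 5.14% fell in Akita + NACET vs Akita. In Akita + NACET vs WT + NACET 6.01% rose and 7.26% fell, and 10.2% were lower in the interaction. The part of the cell types named here in the change of the ribosomal protein genes was not tested.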

How the data were processed

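Poly(A) RNA of male mouse retina was made into 18 libraries with the TruSeq RNA v2 kit. Per the study's methods and processing notes, the authors aligned single-end reads to mm9 with TopHat2 2.1.0. They counted reads over exons with HTSeq 0.11.2, without strand. The deposited values are raw read counts per gene, not normalized. Entries with no name held on average 0.00544% of gene counts and were left out, as were 206 ribosomal RNA genes. Coordinates and lengths came from GENCODE M1 on mm9, which matched 96.1% of names, promoters from RefSeq. The annotation the authors used and the read length are not given in the sources used here.

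Genes were tested with the quasi-likelihood test of edgeR 4.0.16 (R 4.3.3), with TMM scaling, the default filter (minimum count 10, minimum total 15; 16183 genes passed) and all 4 groups in 1 fit. P-values were adjusted by the Benjamini-Hochberg method, with calls at an adjusted p of at most 0.05. SE came from the F statistic. The biological coefficient of variation was 0.186. Levels are CPM on TMM-scaled sizes. Low counts carry more error, and p-values measure only the spread between these samples, since no label says that they came from separate animals.

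Genes named were in each contrast the 3 of smallest p upward and downward, paralogs with their partners, the 3 highest and 3 lowest per kilobase, Rplp0, Rplp1, Rplp2, Rpsa, Rps6, Rps27a and Rps7, and at most 2 called genes a list and contrast. A few genes are not reported here. Members and lists were chosen with earlier results of these data known. Alternatives were DESeq2 1.42.0, other scalings and filters, GC and length corrections, the outside-exon share as covariate, a replicate block, the ribosomal RNA genes put back and single libraries dropped.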

Additional observations from a re-analysis of the deposited data

Results flagged for a closer look

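In groups of 4 to 6 libraries, 11 of 108 sets of values for a named gene held 1 library apart from the others. Its gap to the nearest other was beyond Dixon's critical value, which chance passes in about 1 in 20 independent sets. These sets share libraries and are not independent, so the 11 cannot be weighed against that rate. Akita + NACET replicate 5 was low for Rpl22 (39.9 CPM, nearest 48.4), Rpl22l1 (14.0, nearest 18.3) and Rpl3 (8.49, nearest 15.0). WT + NACET replicate 5 was high for Rplp0 (113 CPM, nearest 85.7), Rpl7 (37.4, nearest 32.3) and Rpl9 (4.63, nearest 3.18). Akita replicate 3 was high for Rps27l (37.4 CPM, nearest 32.9) and Rps27 (1.95, nearest 1.078), and Akita replicate 1 was low for Rpl36a (3.16, nearest 4.72). Rpl17 stood at 0.152 CPM in WT + NACET replicate 3 (nearest 0.477) and Rpl28 at 3.25 in WT + NACET replicate 1 (nearest 4.94).

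The NACET effect in Akita minus that in WT passed the edgeR interaction test for 8 named genes. It was 0.61 for Rpl24 and 0.69 for Rpl5 on the log2 scale, and −0.86 for Rplp0, −0.69 for Rpsa, −0.56 for Rps27l, −0.54 for Rpl26, −0.51 for Rpl15 and −0.50 for Rpl22. The calls of Rpl5 and Rpsa were lost in 21 and 18 of 30 alternatives.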

How the results depend on the processing

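For the ribosomal protein genes called, or named for their p, in a contrast, 950 log2 fold changes under alternatives kept their side of the threshold. A call was lost in 182, 19 gained one and none changed sign. The 950 include genes that were not called and stayed so, and are not a count of calls kept. For called genes of the other pathway lists 1476 kept the call, 613 lost it and none changed sign. Over all 80 genes signs did change: negative ones rose from 27 to 62 with the outside-exon share as covariate in Akita vs WT, and from 19 to 56 in WT + NACET vs WT. Genes called in Akita vs WT (2 as reported) numbered 1 with a mean count of at least 50, 0 by edgeR and 3 by DESeq2 with only the 2 groups in the fit, and 0 to 2 with 1 library left out. In Akita + NACET vs Akita (3) they numbered 6 with the GC correction, 5 with the length correction, 6 by DESeq2 with all groups and 2 with only the 2 groups, 1, upward, by library totals, and 0 to 9 with 1 library left out, with 1, upward, without Akita replicate 3. Without both Akita replicate 4 and Akita + NACET replicate 5, chosen after the data were seen, there were 0. WT + NACET vs WT (0) gave 0 to 1 with 1 library left out. Akita + NACET vs WT + NACET (10) gave 5 by library totals and 4 to 14 with 1 library left out. The interaction (10) gave 5 by library totals, 4 of them higher, 16 with the GC correction, 17 by DESeq2 and 2 to 14 with 1 library left out. With the outside-exon share as covariate there were 0 in all 6 contrasts. Library totals moved the median of all genes to −0.21 for Akita vs WT, to 0.20 for Akita + NACET vs Akita and to 0.30 for the interaction, where those of the 80 genes were −0.10, −0.03 and −0.06. The share of WT gene counts in the 83 genes was 0.278% on TMM-scaled sizes instead of 0.292%. Same-numbered libraries did not deviate together (correlations −0.332 to 0.345), and with a replicate block the calls were 1 for Akita vs WT, 1, upward, for Akita + NACET vs Akita, and 6 for Akita + NACET vs WT + NACET. The cause of these changes was not tested. Genes with few counts, such as Rpl17, are limited by depth.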
